A study of Mus musculus with 20 samples.

Results

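The Igkv genes, the variable segments of the immunoglobulin kappa light chain, were followed here in the small intestine of mouse pups. They were taken as all genes of the deposited table whose symbol is Igkv followed by a digit, which gave 160 of 55487 mouse genes. PolyA RNA of the tissue was sequenced in bulk, in 4 groups of 5 libraries. The groups are 7-week-old pups whose dams had periodontitis, control pups of the same age, 2-week-old pups whose dams had periodontitis, and control pups of that age. Periodontitis is an inflammation of the tissue around the teeth, and it was the dams, not the pups, that had it. The labels name the tissue, the age and the treatment of each library, and give no strain, sex, litter, part of the intestine or animal. Nothing in them says that the libraries of a group are separate animals, so the p-values below measure only the spread between these libraries.

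A B cell makes a kappa chain by joining a single variable segment to a single joining segment upstream of the constant gene Igkc. The joined segment forms most of the antigen-binding part of the chain, and it stays the same in all cells of a clone apart from somatic mutation. In the intestine most kappa RNA comes from plasma cells, which lie in the lamina propria and secrete IgA that the epithelium carries into the lumen. How counts divide among the segments therefore describes which segments the plasma cells and B cells of a piece of tissue carry. Each cell is weighted by its RNA, and in bulk RNA fewer cells of a type and less RNA per cell cannot be told apart.

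All 160 symbols were found in GENCODE M21 on GRCm38, where the segments lie on chromosome 6 between 67555497 and 70704177. Igkc follows at chr6:70726435-70726966 on the plus strand. The nearest segment, Igkv3-1, lies 22.3 kb from Igkc and the farthest, Igkv2-137, 3170.2 kb. Of the segments 75 lie on the strand of Igkc and 85 on the opposite strand. They belong to 20 families, named by the number before the hyphen. The annotation calls 100 of them functional and 60 pseudogenes. Some count was found for 103 segments, of which 96 were functional and 7 pseudogenes, and 57 segments had 0 counts in all 20 libraries. Pseudogenes held at most 3 counts in any library. A count in every library was found for 4 segments, and in a single library for 14. Low counts kept 123 segments out of the gene-wise test, and 37 were tested.

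Of the segments, 12 had the highest count in at least 1 library. The exons that encode the variable part of 7 of these are shown because the results turn on them. Igkv2-137, Igkv8-27 and Igkv8-28 led the 7-week control libraries. Igkv1-117, Igkv6-23 and Igkv12-41 led the 7-week periodontitis libraries, and Igkv16-104 led the 2-week control library that stood apart. Each is the germline sequence of the mouse reference from the GENCODE M21 transcripts, read 5′ to 3′ on the strand of the gene. Exons longer than 300 bases are shown by their last 300. Capitals mark the stretch from the last in-frame cysteine codon to the end, where the germline part of the third complementarity-determining region begins.
Igkv2-137: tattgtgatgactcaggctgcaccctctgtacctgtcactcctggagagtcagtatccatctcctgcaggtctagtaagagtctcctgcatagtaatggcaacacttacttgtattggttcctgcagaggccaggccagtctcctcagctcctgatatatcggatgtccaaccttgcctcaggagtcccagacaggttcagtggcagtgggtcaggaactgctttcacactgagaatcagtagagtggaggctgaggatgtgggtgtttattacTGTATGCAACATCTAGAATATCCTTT
Igkv8-27: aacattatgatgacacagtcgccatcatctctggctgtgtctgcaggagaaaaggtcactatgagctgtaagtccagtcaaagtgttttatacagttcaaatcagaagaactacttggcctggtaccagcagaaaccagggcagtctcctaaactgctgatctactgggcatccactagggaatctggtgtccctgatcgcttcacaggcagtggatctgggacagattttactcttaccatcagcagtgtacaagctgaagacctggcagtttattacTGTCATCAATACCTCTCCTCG
Igkv8-28: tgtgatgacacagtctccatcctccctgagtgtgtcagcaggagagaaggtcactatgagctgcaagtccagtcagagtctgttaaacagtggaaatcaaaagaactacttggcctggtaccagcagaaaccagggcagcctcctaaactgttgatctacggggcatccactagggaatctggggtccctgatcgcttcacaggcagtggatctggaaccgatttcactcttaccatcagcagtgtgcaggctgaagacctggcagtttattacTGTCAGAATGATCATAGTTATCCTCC
Igkv1-117: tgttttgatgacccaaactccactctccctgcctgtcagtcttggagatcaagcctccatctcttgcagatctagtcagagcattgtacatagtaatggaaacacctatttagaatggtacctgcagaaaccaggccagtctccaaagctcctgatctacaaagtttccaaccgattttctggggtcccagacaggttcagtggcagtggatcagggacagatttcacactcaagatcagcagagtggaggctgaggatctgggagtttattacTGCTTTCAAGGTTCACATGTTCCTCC
Igkv6-23: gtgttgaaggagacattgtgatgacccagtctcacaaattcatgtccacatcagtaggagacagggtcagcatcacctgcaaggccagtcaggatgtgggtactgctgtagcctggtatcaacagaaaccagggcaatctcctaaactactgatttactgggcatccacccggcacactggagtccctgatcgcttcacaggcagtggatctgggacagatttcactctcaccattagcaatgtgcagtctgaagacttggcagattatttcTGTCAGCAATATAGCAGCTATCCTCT
Igkv12-41: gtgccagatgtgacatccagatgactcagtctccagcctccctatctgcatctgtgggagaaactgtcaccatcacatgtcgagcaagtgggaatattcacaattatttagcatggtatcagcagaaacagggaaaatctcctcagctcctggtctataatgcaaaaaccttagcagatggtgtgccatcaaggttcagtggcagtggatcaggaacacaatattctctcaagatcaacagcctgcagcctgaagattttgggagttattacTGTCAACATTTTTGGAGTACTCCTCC
Igkv16-104: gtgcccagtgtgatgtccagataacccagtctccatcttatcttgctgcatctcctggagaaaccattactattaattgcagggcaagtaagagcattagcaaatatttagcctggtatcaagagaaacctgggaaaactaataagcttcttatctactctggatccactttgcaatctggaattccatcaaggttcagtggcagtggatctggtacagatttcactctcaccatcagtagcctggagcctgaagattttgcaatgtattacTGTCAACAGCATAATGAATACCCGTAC

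The printed stretches are at chr6:67555917-67556216 on the plus strand for Igkv2-137, chr6:70171809-70172108 on the minus strand for Igkv8-27 and chr6:70143593-70143892 on the minus strand for Igkv8-28. Igkv1-117 is at chr6:68121528-68121827 on the plus strand, Igkv6-23 at chr6:70260409-70260706 on the minus strand, Igkv12-41 at chr6:69858420-69858717 on the minus strand and Igkv16-104 at chr6:68425774-68426072 on the plus strand. Igkv8-27 and Igkv8-28, of the same family, were 90.03% identical over 311 aligned bases, whereas Igkv2-137 and Igkv8-27 were 64.29% identical over 308. Reads of near-identical segments can be split between them by the counting. Of the 37 tested segments 30 shared some run of 50 bases with another segment, and for 7 this was over 50% of their runs. The variable exons of Igkv5-43 and Igkv5-45 differed at 3 of 298 aligned bases and those of Igkv1-110 and Igkv1-117 at 10 of 313. Those of Igkv8-19 and Igkv8-28, which led different 2-week libraries, differed at 7 of 316. Counts of these pairs are uncertain as to which member they belong to. Igkv2-137, Igkv1-88 and Igkv16-104 shared no such run, and Igkv8-27 shared 8.36% of its runs. Annotated transcripts of the tested segments were 347 to 501 bases long, with Igkv2-137 the longest. Shares are of counts, and dividing counts by length changed the leading segment in 1 of 20 libraries.

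Libraries held 14882204 to 42563229 counts, of which 37 to 15630 were of Igkv segments. The 2-week control library 5 stood apart with the lowest total and 1613 Igkc counts beside 56 Igkv counts. Its ratio of Igkv to Igkc counts was 0.0347, whereas the other 2-week control libraries were at 0.352 to 0.618. Libraries of the same group also shared their segment mix to very different degrees, which bears on every comparison below. The measure is the Bray-Curtis distance of segment shares, which is 0 for identical mixes and 1 for mixes with no segment in common. The 7-week control libraries 3 and 4 were 0.052 apart over Igkv and 0.0643 apart over the heavy chain segments Ighv. Their Igkv counts differed a little beyond sampling noise (chi-square 76.2 on 51 degrees of freedom, p = 0.0127, a comparison of these libraries and not of conditions). The 7-week control libraries 1 and 2 were 0.235 apart, and the 7-week periodontitis libraries 1, 2 and 3 were 0.269 to 0.31 apart. All other pairs within a 7-week group were at least 0.438 apart over Igkv and at least 0.506 over Ighv, and no pair within a 2-week group was closer than 0.471 over Igkv. Sampling noise enlarges these distances where counts are few, as in 7-week periodontitis library 4 with 77 Igkv counts and in the 2-week libraries. The chi-square per degree of freedom of that library was 1.76, 2.73 and 2.16 against periodontitis libraries 1, 2 and 3, which were at 3.00 to 5.32 among themselves. Few counts also lower this value, so whether library 4 has a mix of its own is not settled. Over genes outside the immunoglobulin loci the close pairs of the 7-week control group were not set apart as they were over Igkv. Their root mean square log2 difference was 0.672 to 0.744, with 0.744 between libraries 3 and 4, and the other control pairs were at 0.528 to 0.761. In the 7-week periodontitis group the close pairs were at 0.603 to 0.718. The other pairs there were at 0.777 to 1.15, apart from libraries 3 and 4 at 0.661. Whether close libraries share an animal, a piece of tissue or RNA from each other was not tested, and the labels do not say. The main results are therefore also given with close libraries counted once, which leaves 3 against 3 at 7 weeks and 5 against 5 at 2 weeks. Exact permutation of 3 against 3 libraries allows no p under 0.1, so no dam comparison of an Igkv summary at 7 weeks could then pass. Comparisons between ages, 3 against 5, are limited as well. A call lost in this way cannot tell a missing difference from too few libraries. With close libraries counted once, the level difference between dams at 7 weeks was -1.19 on the log2 scale (exact permutation p = 0.50, adjusted p = 0.592).

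**Figure D1:**
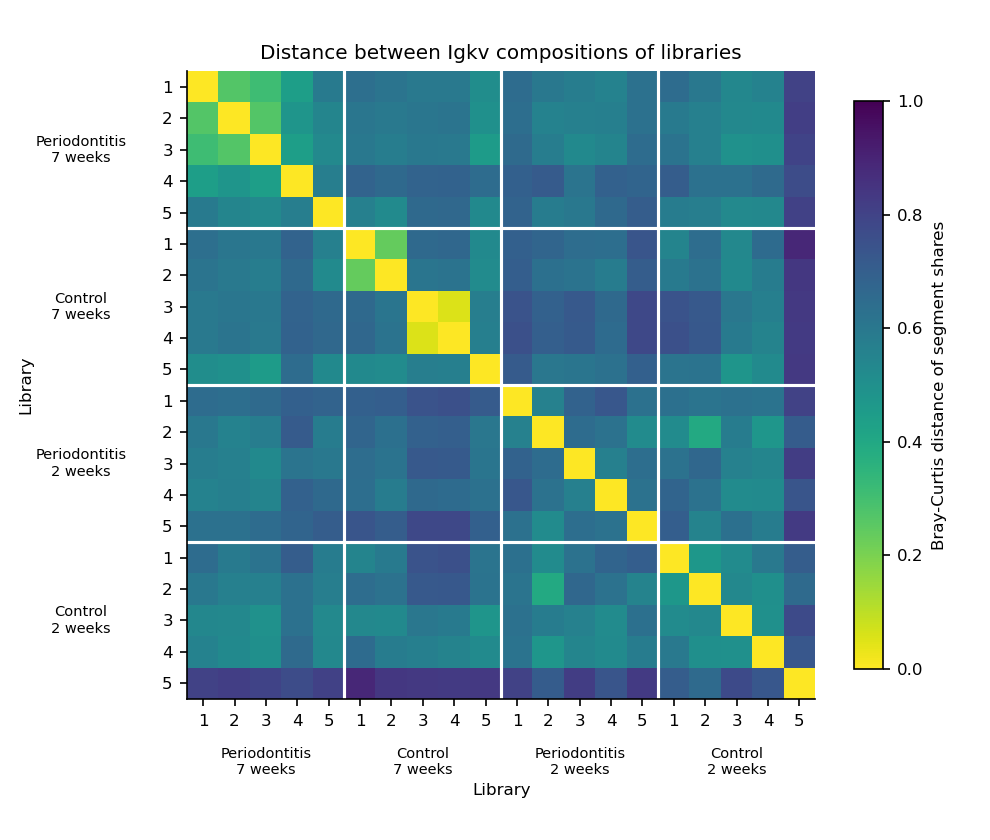
Bray-Curtis distance of Igkv segment shares between all pairs of the 20 libraries, with rows and columns ordered by group and replicate number (0, same mix; 1, no shared segment). Control libraries 3 and 4 at 7 weeks are 0.052 apart, the periodontitis libraries 1 to 3 at 7 weeks form a second close block, and control library 5 at 2 weeks is far from all others.

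The summed level of Igkv segments was much higher at 7 than at 2 weeks in both kinds of pups, and did not differ between dams beyond the spread of libraries. In the 7-week periodontitis libraries 1 to 5 it was 212, 36.8, 12.1, 4.8 and 159 CPM (counts scaled to a common library size). The 7-week control libraries 1 to 5 had 119, 24.3, 513, 133 and 32.2 CPM. The groups overlapped, and both spanned more than an order of magnitude. The mean log2 level, with 0.5 CPM added, was 5.27 ± 2.30 in 7-week periodontitis and 6.53 ± 1.76 in 7-week control libraries (SD, n = 5 each), a difference of -1.26 (exact two-sided permutation test over libraries, p = 0.365, adjusted p = 0.407). Here and below, adjusted p-values of Igkv summaries are Benjamini-Hochberg values over 24 such tests, and 5 against 5 libraries allow no p under 0.00794.

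At 2 weeks the periodontitis libraries 1 to 5 had 4.19, 8.29, 1.89, 1.33 and 0.827 CPM. The control libraries 1 to 5 of that age had 4.34, 5.98, 5.41, 5.04 and 4.51 CPM. The control values were close together, and 4 of 5 periodontitis libraries lay below all of them. The log2 means were 1.58 ± 1.10 and 2.47 ± 0.17 in periodontitis and control libraries (SD, n = 5 each), which differed by -0.89 (exact permutation p = 0.127, adjusted p = 0.203). Without periodontitis library 2, the only one above the controls, the difference was -1.28 with an adjusted exact permutation p of 0.0239.

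With age the level rose in both kinds of pups. In periodontitis pups the 7-week libraries exceeded the 2-week libraries by 3.69 on the log2 scale (exact permutation p = 0.0159, adjusted p = 0.0476). The ranges overlapped, since 7-week library 4 lay at 4.8 CPM and 2-week library 2 at 8.29 CPM. In control pups the difference was 4.06 (exact permutation p = 0.00794, adjusted p = 0.0318), with no overlap. With close libraries counted once the age differences were 3.51 in periodontitis and 3.81 in control pups, with adjusted exact permutation p = 0.214 each. The call in periodontitis pups was also lost when any library other than 7-week library 4 or 2-week library 2 of the compared groups was left out (differences 3.07 to 4.09, adjusted p 0.0693 to 0.0952). The call in control pups was lost without 2-week library 2 (4.12, adjusted p = 0.0571) or 2-week library 4 (4.06, adjusted p = 0.0544).

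**Figure D2:**
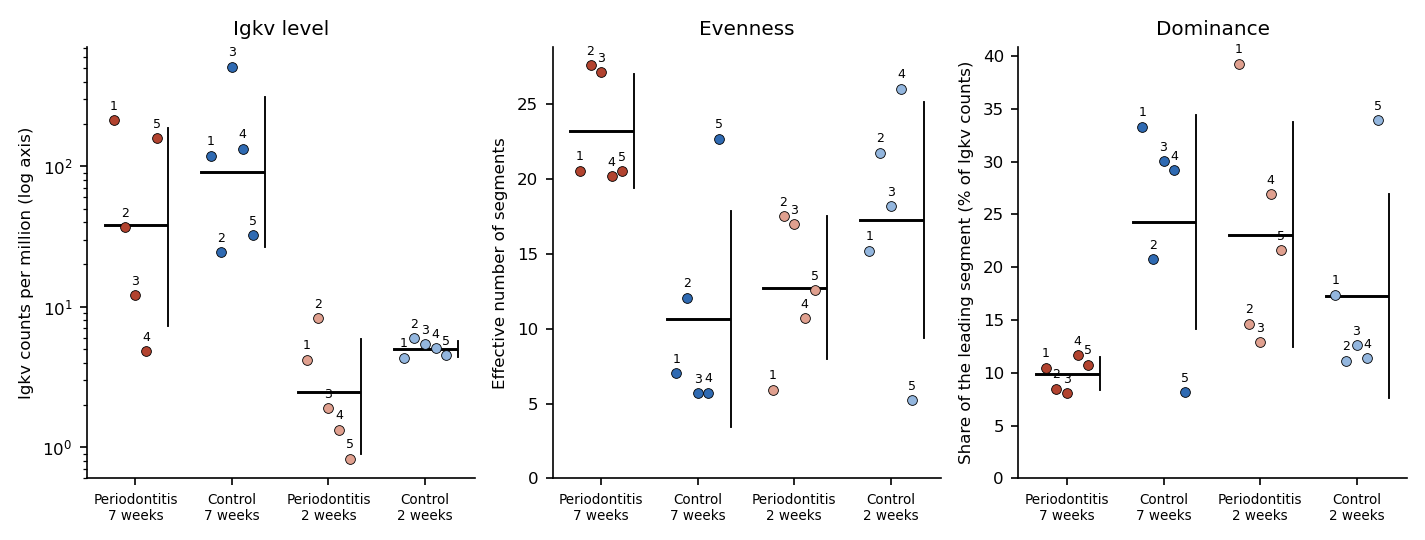
Igkv level (CPM, log axis), effective number of segments and share of the leading segment in each library, with groups from left to right as 7-week periodontitis, 7-week control, 2-week periodontitis and 2-week control; numbers are replicate numbers, thick lines means and thin bars 1 SD (on the log2 scale in the left panel). The 7-week periodontitis libraries lie together at effective numbers of 20.2 to 27.6, and the 7-week control libraries lie at 5.69 to 12.1 apart from library 5 at 22.7.

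Breadth was counted as the number of segments expected in a random draw of 77 Igkv counts, the total of the smallest 7-week library. Drawn to this depth, 7-week periodontitis libraries 1 to 5 held 28.4, 32.9, 32.8, 27.0 and 29.2 segments. Control libraries 1 to 5 of that age held 21.5, 24.1, 21.4, 21.1 and 29.0 segments. Control library 5 lay within the periodontitis range and the other 4 below it. The means were 30.05 ± 2.66 and 23.4 ± 3.33 segments in 7-week periodontitis and control libraries (SD, n = 5 each), a difference of 6.62 (exact permutation p = 0.0238, adjusted p = 0.0520). Without any draw to equal depth, 85 segments had a count in the 7-week periodontitis group, against 95 in the 7-week control group, whose summed Igkv counts were 12039 and 23946. The difference in breadth with close libraries counted once was 4.84 segments (exact permutation p = 0.20, adjusted p = 0.364). Segments with at least 10 counts were fewer by 3.8 on average in the 7-week periodontitis libraries, so the direction depended on equal depth.

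Evenness was measured as the effective number, the inverse Simpson index. It is the number of equally abundant segments that would give the same chance that a pair of counts falls on the same segment. It was 20.6, 27.6, 27.2, 20.2 and 20.5 in 7-week periodontitis libraries 1 to 5. In 7-week control libraries 1 to 5 it was 7.04, 12.1, 5.69, 5.72 and 22.7. The periodontitis libraries were alike, and 4 of 5 control libraries lay below all of them, at 12.1 or less. Means were 23.2 ± 3.82 and 10.6 ± 7.22 in 7-week periodontitis and control libraries (SD, n = 5 each), a difference of 12.6 (exact permutation p = 0.0318, adjusted p = 0.0635). Leaving out control library 5 brought the difference to 15.6 (adjusted exact permutation p = 0.0190), and counting close libraries once to 9.29 (exact permutation p = 0.30, adjusted p = 0.464).

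Dominance gave the same picture in single segments. The leading segment held 10.5, 8.47, 8.05, 11.7 and 10.8% of Igkv counts in 7-week periodontitis libraries 1 to 5. In 7-week control libraries 1 to 5 it held 33.3, 20.8, 30.1, 29.2 and 8.14%. The Wilson 95% interval of control library 1 was 31.8 to 34.9% and that of periodontitis library 4, with 77 counts, 6.27 to 20.7%, which covers counting error only, as do all such intervals here. Means were 9.89 ± 1.56% and 24.3 ± 10.2% in 7-week periodontitis and control libraries (SD, n = 5 each), a difference of -14.4 percentage points (exact permutation p = 0.0397, adjusted p = 0.0733). Without control library 5 it was -18.4 points (adjusted exact permutation p = 0.0190), and breadth without this library differed by 8.01 segments (adjusted exact permutation p = 0.0190). Counting close libraries once, the leading share differed by -11.1 points (exact permutation p = 0.40, adjusted p = 0.533). The number of segments needed for 50% of Igkv counts was 7, 10, 9, 6 and 8 in 7-week periodontitis libraries 1 to 5, and 3, 5, 2, 2 and 8 in the control libraries of that age.

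**Figure D3:**
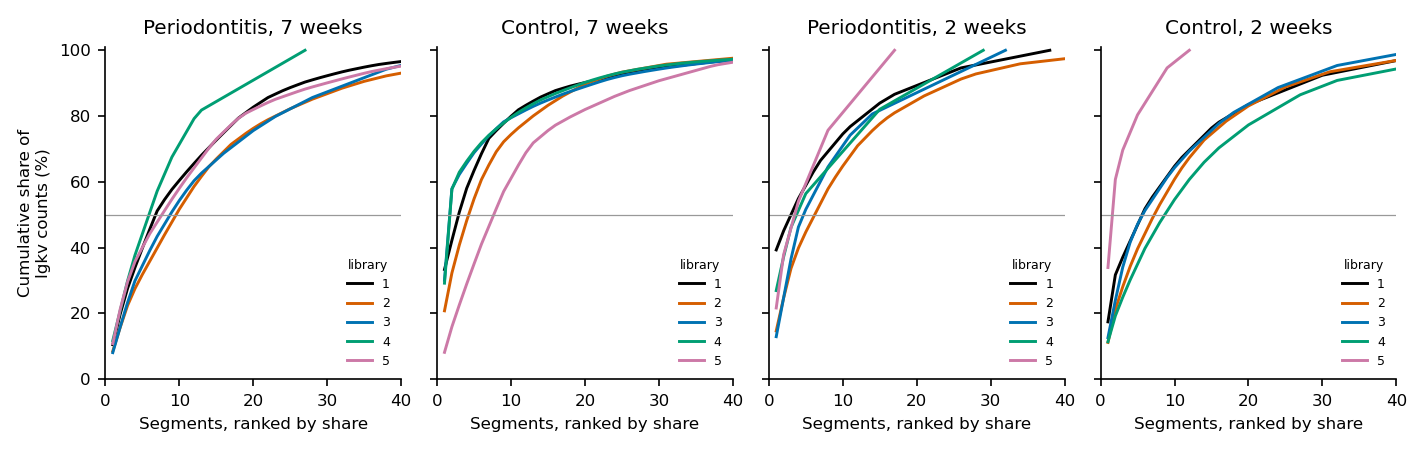
Cumulative share of Igkv counts (y axis, %) held by the segments ranked by share (x axis), for each of the 5 libraries of each group (colours, replicate numbers); the grey line marks 50%. At 7 weeks the periodontitis curves cross it after 6 to 10 segments, and the control curves after 2 to 5 segments apart from library 5, which needs 8.

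At 2 weeks these summaries did not separate the dams. The effective number was 5.93, 17.5, 16.98, 10.7 and 12.6 in periodontitis libraries 1 to 5, against 15.2, 21.8, 18.2, 26.1 and 5.20 in control libraries 1 to 5. The difference of means was -4.55 (exact permutation p = 0.310, adjusted p = 0.391). The leading segment held 12.9 to 39.3% in periodontitis and 11.2 to 33.9% in control libraries (difference 5.79 points, exact permutation p = 0.373, adjusted p = 0.407). Breadth in a draw of 37 counts was 18.0 ± 1.32 and 18.5 ± 4.62 segments in periodontitis and control libraries (SD, n = 5 each; exact permutation p = 0.873, adjusted p = 0.873). The lowest control value was that of library 5, with 10.5 segments. Without it breadth was 2.44 segments lower in periodontitis libraries (adjusted exact permutation p = 0.0381). A library of 37 counts, the smallest at this age, can miss any segment with a share of up to 8.11%, the share that 3 counts make.

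The difference between dams in effective number was itself different at the 2 ages. It was 12.6 at 7 weeks and -4.55 at 2 weeks, so that the difference between them was 17.1 (exact permutation of the dam labels within each age, p = 0.00983, adjusted p = 0.0337). With close libraries counted once it was 13.8 (exact permutation p = 0.0718, adjusted p = 0.277). The adjusted p also rose above 0.05 when any 1 of 13 of the 20 libraries was left out, with differences of 14.9 to 20.1 over all 20. Those libraries were 7-week periodontitis 1, 2, 3 and 5, 7-week control 1 to 4, 2-week periodontitis 1, 4 and 5, and 2-week control 2 and 4. For the leading share the difference between the dam differences was -20.2 points (exact permutation p = 0.0230, adjusted p = 0.0520), and it passed without 7-week control library 5 (-24.2), 2-week control library 5 (-24.4), or 2-week periodontitis library 2 (-22.3) or 3 (-22.7), with adjusted p 0.0190 to 0.0403. For breadth, drawn to 37 counts, it was 5.31 segments (exact permutation p = 0.0660, adjusted p = 0.113), and 7.32 without 2-week control library 5 (adjusted p = 0.0166). Counting close libraries once, these were -16.9 points (exact permutation p = 0.0996) and 4.05 segments (exact permutation p = 0.212), and neither passed. For the level it was -0.38 on the log2 scale (exact permutation p = 0.80, adjusted p = 0.834).

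Within periodontitis pups evenness rose with age. The 7-week values of 20.2 to 27.6 lay above all 2-week values of 5.93 to 17.5, a difference of 10.5 (exact permutation p = 0.00794, adjusted p = 0.0318). The share of the leading segment was 8.05 to 11.7% at 7 weeks and 12.9 to 39.3% at 2 weeks, a difference of -13.2 points (exact permutation p = 0.00794, adjusted p = 0.0318). This share was not drawn to equal depth, and the highest share among few counts tends to come out too high. The periodontitis libraries held 77 to 5491 Igkv counts at 7 weeks and 37 to 389 at 2 weeks. The part of depth in this difference was not tested. With close libraries counted once the differences in effective number and leading share were 9.20 (exact permutation p = 0.0357, adjusted p = 0.214) and -12.6 points (exact permutation p = 0.0714, adjusted p = 0.277). Neither call held when 7-week library 1, 2, 3 or 5 was left out, and that of the leading share was also lost without 7-week library 4 (adjusted p 0.0635 to 0.0952 in all these cases). In control pups the effective number differed by -6.64 between 7 and 2 weeks (exact permutation p = 0.206, adjusted p = 0.291) and the leading share by 7.01 points (exact permutation p = 0.302, adjusted p = 0.391). Breadth in periodontitis pups, drawn to 37 counts, was 20.7 segments at 7 weeks and 18.0 at 2 weeks, a difference of 2.64 (exact permutation p = 0.0238, adjusted p = 0.0520). It passed without 7-week library 4 (3.11, adjusted p = 0.0381) or 2-week library 2 (2.92, adjusted p = 0.0476). Breadth in control pups, drawn to 56 counts, was 19.9 segments at 7 weeks and 23.1 at 2 weeks, a difference of -3.19 (exact permutation p = 0.333, adjusted p = 0.40). The depths differ, so these differences are not to be set against each other. Without 2-week control library 5 the difference in control pups, again drawn to 56 counts, was -5.96 (exact permutation p = 0.0318, adjusted p = 0.0508). The smallest library left allowed a draw of 224 counts, at which it was -9.18 (adjusted p = 0.0408). Counted with close libraries once, breadth differed by 2.11 in periodontitis and -2.34 in control pups (exact permutation p = 0.125 and 0.607).

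The mix of segments differed between the dams at 7 weeks. Distances between a periodontitis and a control library averaged 0.599 over 25 pairs, whereas they averaged 0.444 within periodontitis and 0.503 within control libraries, over 10 pairs each. The excess of distances between groups over those within was 0.126 (exact one-sided permutation p = 0.00794, adjusted p = 0.0318). Close libraries make up much of the small distances within groups. With them counted once the excess was 0.0490 (exact permutation p = 0.1, the smallest that 3 against 3 can give, adjusted p = 0.277). The call was also lost without any 1 of the 5 periodontitis libraries or control library 4 (excess 0.109 to 0.151, adjusted p 0.0574 to 0.0952). At 2 weeks the excess was 0.0126 (exact permutation p = 0.198, adjusted p = 0.291), with mean distances of 0.622 between the dams, 0.622 within periodontitis and 0.598 within control libraries. Between 7 and 2 weeks the excess was 0.0886 in periodontitis and 0.106 in control pups (exact permutation p = 0.00794 and adjusted p = 0.0318 each). With close libraries counted once these were 0.0378 in periodontitis and 0.0559 in control pups (adjusted exact permutation p = 0.214 and 0.277). Both were also lost without any 1 of the 7-week periodontitis libraries or 7-week control libraries 1 to 4 of the pups compared, or, in control pups, without 2-week library 2 (adjusted p 0.0571 to 0.0952).

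The segments behind the uneven control mixes were few. Igkv2-137, the segment farthest from Igkc, held 33.3, 20.8, 2.49, 1.81 and 1.00% of Igkv counts in 7-week control libraries 1 to 5. In 7-week periodontitis libraries 1 to 5 it held 0.167, 0.833, 0.862, 1.3 and 0.965%. It was thus the leading segment of control libraries 1 and 2 only, the pair whose mixes were close. Igkv8-27 held 1.48, 0.417, 0.862, 1.3 and 0.747% in periodontitis libraries 1 to 5, against 0.250, 4.03, 30.1, 29.2 and 6.63% in control libraries 1 to 5. Igkv1-117 held 10.5, 7.22, 8.05, 7.79 and 2.73% in periodontitis and 4.67, 6.65, 27.8, 28.6 and 5.38% in control libraries 1 to 5. These last segments thus led and came second in control libraries 3 and 4, the closest pair of the series. Control library 5 was led by Igkv8-28, with 8.14%.

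In the 7-week periodontitis libraries the leading segments each held a modest share. Igkv1-117, also high in control libraries 3 and 4, led periodontitis libraries 1 and 3. Igkv6-23 led libraries 2 and 4 and Igkv12-41 led library 5. Igkv6-23 held 5.74, 8.47, 4.60, 11.7 and 0.783% of Igkv counts in periodontitis libraries 1 to 5, against 0.528, 0.202, 0.998, 0.818 and 0.626% in control libraries 1 to 5. Its share was above all control values in periodontitis libraries 1 to 4, and library 5 lay within the control range. Igkv4-68 held 9.25, 4.03, 4.60, 6.49 and 1.53% in periodontitis and 1.22, 0.202, 0.729, 0.730 and 5.38% in control libraries 1 to 5. Igkv12-41 led periodontitis library 5 with 10.8% and held 0.222 to 5.19% in the other 4 periodontitis libraries and 0.306 to 0.626% in the control libraries. Mean shares of the 6 highest segments of the periodontitis group ran from 4.95 ± 3.46% for Igkv19-93 to 7.25 ± 2.82% for Igkv1-117 (SD, n = 5), and those of the control group from 4.88 ± 0.733% for Igkv5-43 to 14.6 ± 12.4% for Igkv1-117.

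**Figure D4:**
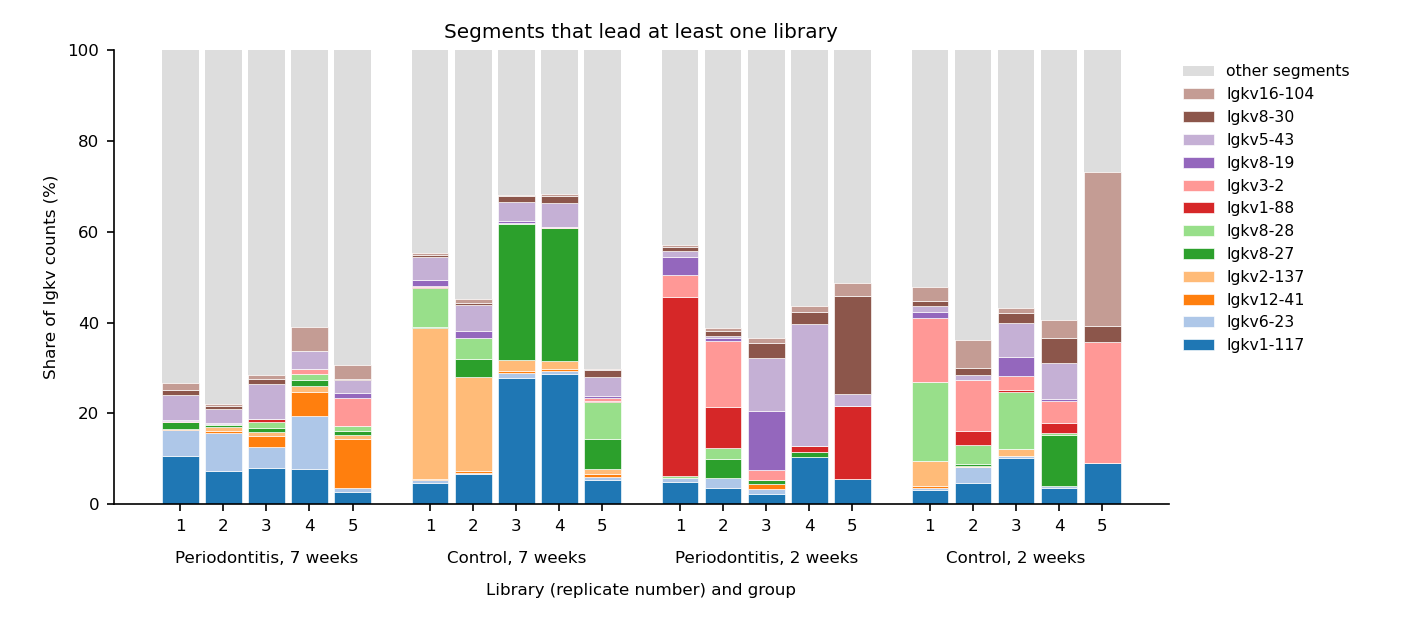
Share of Igkv counts (y axis, %) of the 12 segments that led at least 1 library, stacked for each of the 20 libraries by group and replicate number, with all other segments in grey. Igkv2-137 makes up 33.3 and 20.8% of 7-week control libraries 1 and 2, Igkv8-27 and Igkv1-117 make up most of libraries 3 and 4, and no segment passes 11.7% in the 7-week periodontitis libraries.

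At 2 weeks 8 segments led the 10 libraries. The 5 periodontitis libraries had 5 leading segments, Igkv1-88 with 39.3% (Wilson 95% interval 33.1 to 45.8%), Igkv3-2 with 14.7%, Igkv8-19 with 12.9%, Igkv5-43 with 26.9% and Igkv8-30 with 21.6%, in libraries 1 to 5. The last rests on 8 of 37 counts (11.4 to 37.2%). The control libraries had 4, with Igkv8-28 leading libraries 1 and 3 (17.4 and 12.6%), Igkv3-2 library 2 (11.2%), Igkv8-27 library 4 (11.4%) and Igkv16-104 library 5 (33.9%, interval 22.9 to 47.0%). Igkv1-88 was the highest of the 2-week periodontitis group on average. It held 39.3, 9.0, 0, 1.28 and 16.2% in 2-week periodontitis and 0, 3.08, 0.420, 2.18 and 0% in 2-week control libraries 1 to 5, and at most 0.575% in any 7-week library.

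None of these shifts between dams was called for a single segment. In edgeR's quasi-likelihood test with Benjamini-Hochberg adjustment over all 17464 genes tested, 0 of 37 tested segments passed at 7 weeks, where 0.0115% of all genes did. At an unadjusted p under 0.05 there were 7 of 37 segments, 3 higher and 4 lower in periodontitis libraries, where 3.33% of all genes had one. DESeq2 called 0 of 100 segments, where it called 0.0898% of all genes. The smallest p were those of Igkv2-137, with a log2 fold change of -4.56 ± 1.06 (SE, edgeR adjusted p = 0.332), and Igkv8-27 at -5.34 ± 1.43 (adjusted p = 0.537). Then came Igkv1-117 at -2.62 ± 1.04, Igkv6-15 at 2.41 ± 0.95 and Igkv3-2 at 3.49 ± 1.42, each with an edgeR adjusted p of 1. The value of Igkv3-2 rested on periodontitis library 5, where it held 6.14% of Igkv counts, against at most 1.3% in the other periodontitis libraries, and was -0.60 without that library. Single libraries also weighed on the others. Igkv1-117 was at -0.93 without control library 3 and at -4.15 without periodontitis library 1, and Igkv6-15 at 1.04 without periodontitis library 1 and 3.17 without control library 3. Igkv8-27 was at -3.46 without control library 3 and -6.50 without periodontitis library 1, and Igkv2-137 at -3.35 without control library 1 and -5.82 without periodontitis library 5. Fold changes of the 37 segments lay above 0 for 18 and below 0 for 19, with a median of -0.03 on the log2 scale, against 0.02 for all genes.

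At 2 weeks edgeR called 0 of 37 tested segments between the dams, where 0.0286% of all genes passed. Unadjusted p under 0.05 were found for 3 of 37 segments, all lower in periodontitis libraries, where 14.4% of all genes had one. DESeq2 called 2 of 100 segments as lower, where it called 1.86% of all genes. They were Igkv16-104 and Igkv13-84, of which the second was named after its value was seen. Igkv13-84 had 0 counts in the periodontitis libraries and 3 in the control libraries of this age, all 3 in control library 1. Igkv16-104 held 0.446, 0.771, 1.08, 1.28 and 2.7% in periodontitis and 3.12, 6.15, 1.26, 3.93 and 33.9% in control libraries 1 to 5, with a log2 fold change in level of -3.57 ± 1.26 (SE, edgeR adjusted p = 0.195), and -2.64 without control library 5. Igkv5-48 had 0 counts in the 5 periodontitis libraries and 22 in the control libraries, 14 of them in control library 2. With the periodontitis group set to 3 counts in sum it was at least 9.42-fold lower in periodontitis libraries (edgeR adjusted p = 0.287). Igkv2-137, with 0 and 17 counts in the periodontitis and control groups, was at least 7.28-fold lower (edgeR adjusted p = 0.421), and 12 of the 17 were in control library 1. Igkv8-28 at -3.11 ± 1.42 and Igkv15-103 at -2.36 ± 1.70 had edgeR adjusted p of 0.325 and 0.544. Igkv8-28 was at -5.48 without periodontitis library 2, and Igkv15-103 at -1.15 without control library 3 and -4.77 without periodontitis library 1. The other periodontitis libraries of this age had 0 counts of Igkv15-103. The value of -4.77 was thus fitted against 0 counts and gives no size. Fold changes were below 0 for 27 of 37 segments, with a median of -0.51 (-0.50 with the 3 segments that had a group at 0 set to their bound), against 0.02 for all genes.

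For the difference between the dam effects at the 2 ages edgeR called 0 of 37 segments, where 0.0229% of all genes passed. An unadjusted p under 0.05 was found for 2 of 37, where 8.8% of all genes had one. DESeq2 called 2 of 100, again Igkv16-104 and Igkv13-84, where it called 0.208% of all genes. In edgeR, Igkv16-104 differed by 5.22 ± 1.56 on the log2 scale (adjusted p = 0.398) and Igkv3-2 by 4.38 ± 1.93 (adjusted p = 0.553). Igkv16-104 differed by 4.28 without 2-week control library 5, by 4.30 without 7-week periodontitis library 5 and by 5.98 without 7-week control library 3. Igkv3-2 differed by 0.28 without 7-week periodontitis library 5, by 6.52 without 2-week periodontitis library 2, and by -0.04 without 2-week control library 5 and 7-week periodontitis library 5 together.

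With age, nearly all tested segments rose. In periodontitis pups 32 of 37 passed as higher at 7 weeks in edgeR, where 66.1% of all genes passed, 30.4% as higher and 35.7% as lower. In control pups 33 of 37 passed as higher, where 61.5% of all genes passed, 27.1% as higher and 34.4% as lower. No tested segment passed as lower in either, and no fitted fold change was below 0 in periodontitis pups. A segment could be tested where enough libraries held it, and a segment high at 7 weeks only passes that filter through those libraries, so these counts describe the tested segments and support nothing about all 160. Median log2 fold changes were 5.2 in periodontitis and 4.5 in control pups, against -0.11 and -0.13 for all genes, and setting the 3 segments at 0 in a periodontitis group to their bound left the first at 5.2. The number called depended on which segments could be tested, as a filter of CPM above 1 in at least 5 libraries left 10 segments. Of these 9 passed in periodontitis and 10 in control pups, where 68.3 and 64.3% of all genes passed. Counting close libraries once, 37 of 40 passed as higher in periodontitis and 34 of 40 in control pups, where 54.9 and 53.7% of all genes passed.

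In periodontitis pups the largest rises were those of Igkv12-41, Igkv4-68, Igkv4-57, Igkv2-137 and Igkv6-23, with edgeR adjusted p of 2.28e-05 to 0.00526. Igkv12-41 had 619 counts at 7 weeks against 1 at 2 weeks, a ratio of levels of 1258 with an exact 95% counting interval of 225 to 49789. The ratio of Igkv4-68, with 634 and 3 counts at 7 and 2 weeks, was 430 (146 to 2089), and that of Igkv4-57, with 242 and 1 counts, 492 (87.5 to 19514). Igkv2-137, with 72 counts at 7 weeks and 0 at 2 weeks, was at least 48.8-fold higher. Igkv6-23 rose by 6.22 ± 1.25 on the log2 scale (SE, edgeR adjusted p = 0.000243). Single libraries held most counts of several of these, which the counting intervals do not cover. Library 5 at 7 weeks held 592 of the 619 counts of Igkv12-41, 194 of the 242 of Igkv4-57 and 53 of the 72 of Igkv2-137, and library 1 held 500 of the 634 of Igkv4-68. The fitted rise of Igkv12-41 was 8.96 on the log2 scale with all libraries, 5.29 without 7-week library 5 and 10.01 without 2-week library 3. That of Igkv4-57 was 7.71, 6.09 and 8.76 in the same cases. As the 2-week libraries held 1 count of each of these segments in sum, these fitted rises rest on at most 1 count there. They give no exact size, least of all with a 2-week library left out. The fitted rise of Igkv4-68 was 8.32, and 6.31 without 7-week library 1 and 9.14 without 2-week library 1. Igkv6-23 rose by 4.84 without 7-week library 1 and 7.61 without 2-week library 2. Each of the 5 segments still passed in edgeR without any 1 library of the groups compared.

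The 5 largest rises in control pups included those of Igkv8-27 and Igkv2-137, which led 7-week control libraries 1 to 4. Igkv8-28, which led library 5, was not among them. Igkv8-27 rose by 8.15 ± 1.70 on the log2 scale (SE, edgeR adjusted p = 0.000426), Igkv2-137 by 7.13 ± 1.26 (adjusted p = 0.000172) and Igkv1-117 by 7.00 ± 1.34 (adjusted p = 0.000190). Igkv12-46 and Igkv12-44, of the same family, rose by 6.66 ± 1.29 and 6.46 ± 1.23. Here too single libraries moved the values. Without 7-week library 3 the rises were 6.26 for Igkv8-27, 5.30 for Igkv1-117, 5.59 for Igkv12-46 and 5.78 for Igkv12-44, and without 7-week library 1 that of Igkv2-137 was 5.92. The rise was 11.9 for Igkv8-27 without 2-week library 4, 8.33 for Igkv2-137 without library 1, 8.42 for Igkv12-46 without library 2 and 7.16 for Igkv12-44 without library 3 of that age. Each of the 5 segments still passed in edgeR without any 1 library of the groups compared.

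Shares were also summed to families, which are described here and were not tested one by one. Family 8, to which Igkv8-27 and Igkv8-28 belong, held 4.53 ± 1.86% of Igkv counts in 7-week periodontitis and 21.44 ± 10.6% in 7-week control libraries (SD, n = 5 each). The ranges of 2.64 to 7.61% and 11.5 to 33.0% in these groups did not overlap. Family 14 did not overlap at 7 weeks either, with 0.666 to 2.3% in periodontitis and 0.25 to 0.626% in control libraries. In every other family the 7-week ranges overlapped. Close libraries, such as control libraries 1 and 2 or 3 and 4, were counted separately in these ranges. Family 6, to which Igkv6-23 and Igkv6-15 belong, held 16.8 ± 7.87% in periodontitis and 4.37 ± 2.32% in control libraries at 7 weeks, and the highest control library at 8.26% lay above the lowest periodontitis library at 7.49%. Family 2 held 2.13 ± 1.87% in periodontitis and 13.2 ± 13.8% in control libraries, where Igkv2-137 in libraries 1 and 2 made up most of it. Family 1 was the highest on average in all groups but the 2-week control group, with 18.9 ± 1.47, 23.2 ± 10.3, 27.6 ± 13.2 and 13.7 ± 2.10% in 7-week periodontitis, 7-week control, 2-week periodontitis and 2-week control libraries. Family 4, which has 33 segments and is the largest, held 17.8 ± 4.66% in 7-week periodontitis and 11.2 ± 5.87% in 7-week control libraries.

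Segments in use were spread over the whole locus at both ages. The 80 segments nearest to Igkc held 46.0 to 60.5% of Igkv counts in 7-week periodontitis and 37.6 to 63.5% in 7-week control libraries. At 2 weeks they held 28.1 to 62.4% in periodontitis and 37.5 to 62.4% in control libraries. Segments on the strand opposite to Igkc, which are joined by inversion of the DNA between them, held 57.1 to 66.6% in 7-week periodontitis and 44.8 to 67.7% in 7-week control libraries. At 2 weeks they held 62.8 to 75.7% in periodontitis and 12.5 to 65.9% in control libraries, where the lowest value was that of library 5. All these ranges overlapped.

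**Figure D5:**
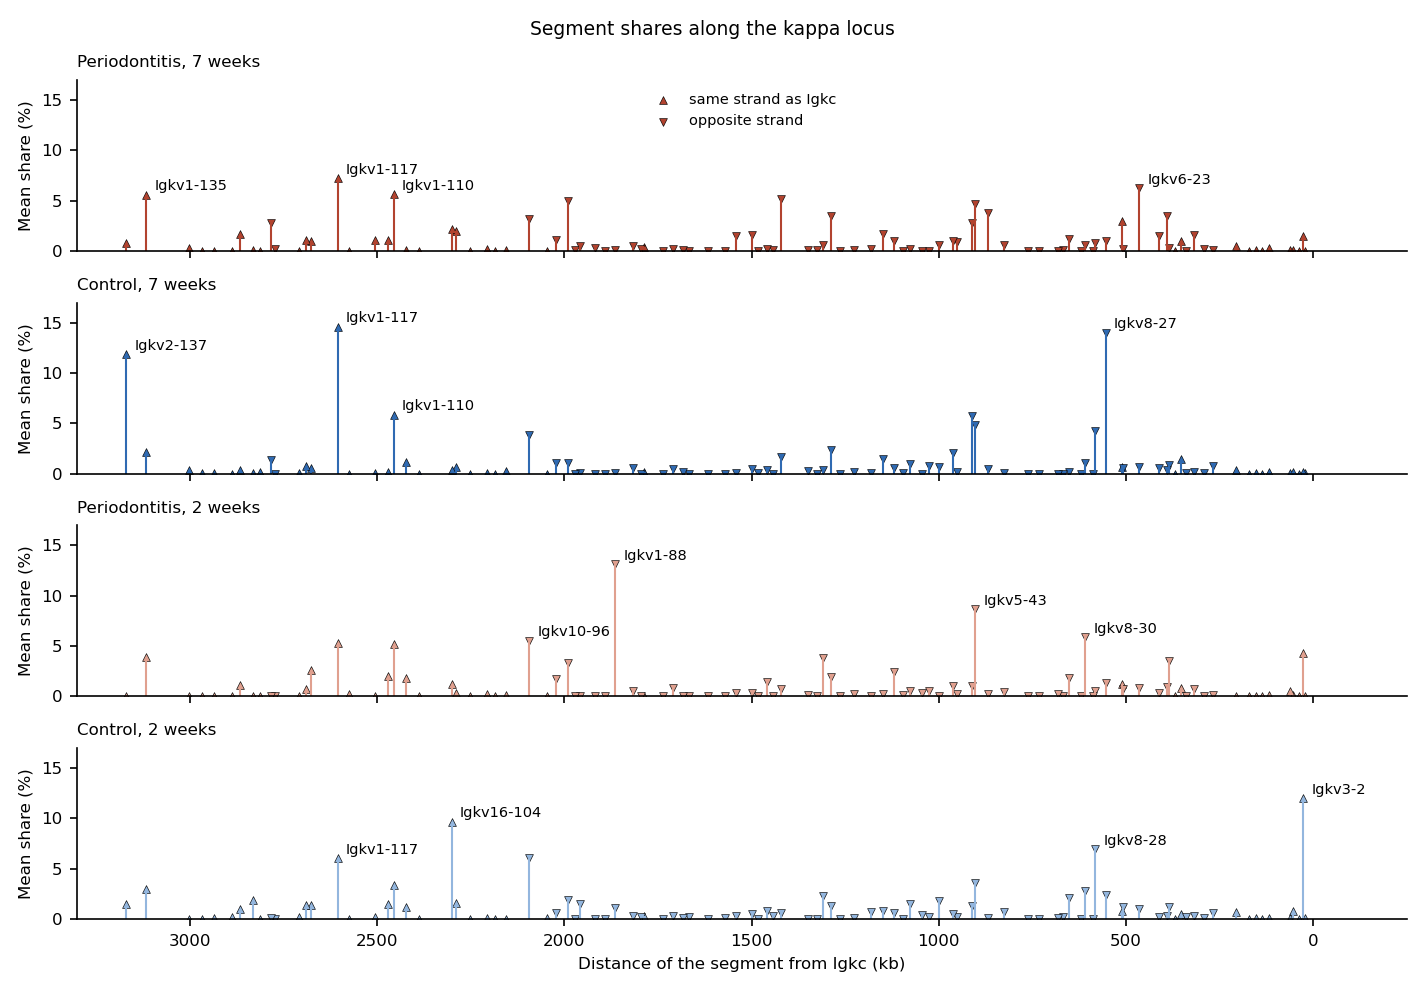
Mean share of Igkv counts of each segment with a count (y axis, %, over 5 libraries) against its distance from Igkc (x axis, kb, Igkc at the right), in 7-week periodontitis, 7-week control, 2-week periodontitis and 2-week control libraries from top to bottom; triangles pointing up lie on the strand of Igkc and those pointing down on the other. Shares are spread over the locus, with means of 11.9% for Igkv2-137, 14.6% for Igkv1-117 and 14.03% for Igkv8-27 in the 7-week control group and none above 7.25% in the 7-week periodontitis group.

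Igkc, the constant gene of the kappa chain, had 604, 223, 73.7, 42.8 and 657 CPM in 7-week periodontitis and 269, 104, 1629, 449 and 120 CPM in 7-week control libraries 1 to 5. The groups overlapped, and the log2 fold change was -0.68 ± 0.91 (SE, edgeR adjusted p = 1). Igkc rose with age by 5.41 ± 1.10 in periodontitis pups (edgeR adjusted p = 0.000272) and by 3.92 ± 1.03 in control pups (edgeR adjusted p = 0.00270). At 2 weeks it had 2.56 to 17.4 CPM in periodontitis libraries, and 130 CPM in control library 5 against 8.14 to 14.3 CPM in the other control libraries. That library did not stand apart in its summed Igkv level of 4.51 CPM. Without it Igkc rose with age by 5.6 ± 1.03 in control pups (SE, edgeR adjusted p = 0.000117), and without 7-week control library 3 by 2.80 ± 0.92 (edgeR adjusted p = 0.0136). Of 10 plasma cell genes 4 rose and 1 fell with age in periodontitis pups, and 6 rose and 1 fell in control pups. Of all genes tested 66.1% passed with age in periodontitis pups, 30.4% as higher, and 61.5% in control pups, 27.1% as higher. Among the plasma cell genes that rose were Jchain, the chain that joins IgA into dimers (7.40 ± 0.75 and 6.65 ± 0.72 on the log2 scale in periodontitis and control pups, edgeR adjusted p = 1.26e-07 and 5.38e-07), and Mzb1, which helps antibody folding (2.89 ± 0.67 and 4.13 ± 0.70, edgeR adjusted p = 0.000841 and 6.09e-05). The fall was of Prdm1 in periodontitis pups and of Sdc1 in control pups, and both genes are also made by other cells of the gut wall. Igha, the constant gene of IgA, rose by 5.39 ± 1.02 and 6.05 ± 1.05 in periodontitis and control pups (edgeR adjusted p = 0.000129 and 7.38e-05).

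B cells are the other source of kappa RNA. The summed level of 10 B cell genes was 5.50, 2.05, 1.21, 16.1 and 6.74 CPM in 7-week periodontitis libraries 1 to 5, against 25.7, 21.97, 67.5, 21.02 and 3.22 CPM in 7-week control libraries 1 to 5. Up to 4 of the 10 genes had 0 counts in a periodontitis library and up to 2 in a control library. Control library 5, whose mix was as even as those of the periodontitis libraries, had the lowest control value, and periodontitis library 4 with the highest periodontitis value was even too. The part of B cells in the evenness of segments was not tested. In edgeR 0 of the 10 genes passed between the dams at 7 weeks, but all 10 had an unadjusted p under 0.05 with lower levels in periodontitis libraries, and DESeq2 called 2. Of all genes 0.0115% passed in edgeR, 3.33% had an unadjusted p under 0.05 and DESeq2 called 0.0898%. The median log2 fold change was -2.79, and that of Pax5, the factor that keeps B cell identity, was -4.12 ± 0.97 (SE, edgeR adjusted p = 0.311). At 2 weeks edgeR called 0 between the dams, with 0 at an unadjusted p under 0.05 and 0 in DESeq2. Of all genes 14.4% had an unadjusted p under 0.05 there, and DESeq2 called 1.86%. With age 6 of 10 passed as lower in periodontitis pups, where 35.7% of all genes did, among them Pax5 (-3.31 ± 0.97, edgeR adjusted p = 0.00553) and Cd22, a brake on B cell receptor signalling (-1.75 ± 0.46, edgeR adjusted p = 0.00257). In control pups edgeR called 0 with age, where 61.5% of all genes passed, with 0 at an unadjusted p under 0.05 and 0 in DESeq2. Single libraries weighed on the dam difference at 7 weeks. Cd22 was at -1.26 on the log2 scale without control library 3 and at -2.12 without periodontitis library 5.

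Markers of other tissues that a piece of intestine can bring along were set beside the dam difference at 7 weeks. The summed level of 4 fat genes was 33.3, 26.04, 34.3, 83.8 and 14.8 CPM in periodontitis and 19.7, 9.32, 17.1, 8.49 and 11.99 CPM in control libraries 1 to 5. EdgeR called 0 of the 4, but all 4 had an unadjusted p under 0.05 with higher levels in periodontitis libraries, DESeq2 called 2, and the median log2 fold change was 3.74. Of all genes at 7 weeks 3.33% had an unadjusted p under 0.05 and DESeq2 called 0.0898%. The same shares stand beside the follicle and pancreas counts below. Up to 2 of them were at 0 in a library of either group. For the difference between the dam effects at the 2 ages edgeR called 1 of the 4, as higher, where 0.0229% of all genes passed. Of 7 tested genes of lymphoid follicles and M cells edgeR called 0 at 7 weeks, with 3 at an unadjusted p under 0.05, all lower, 0 in DESeq2 and a median of -1.13. Their summed level was 12.3 to 19.9 CPM in periodontitis and 10.7 to 43.6 CPM in control libraries. Of 6 pancreas genes edgeR called 0, with 0 at an unadjusted p under 0.05, 0 in DESeq2 and a median of -0.75, and their summed level was 5.50 to 11.5 CPM in periodontitis and 5.80 to 10.4 CPM in control libraries, with up to 4 and up to 3 of them at 0 in a periodontitis and a control library. The part of these tissues in the segment mix was not tested.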

How the data were processed

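The deposited table holds expected counts per gene, which the authors made with RSEM 1.3.3 after STAR 2.7.8a and cutadapt 4.8, per the submitters' processing notes. Of its 55491 lines, 4 name no mouse gene and held 0 counts. The annotation release, strandedness and handling of reads that fit several segments are not given in the sources used here. Expected counts were rounded to whole numbers. Symbols, exons and coordinates came from GENCODE M21 on GRCm38, a build that the notes list beside GRCh38.

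All 20 libraries were fitted together by group with edgeR 4.0.16 (robust quasi-likelihood test, TMM, R 4.3.3, genes kept by edgeR's expression filter). Benjamini-Hochberg adjustment ran over every gene tested, adjusted p under 0.05 was called, and DESeq2 1.42.0 was the other tool. CPM uses TMM library sizes. Igkv summaries were computed per library in Python 3.11.15 with numpy 2.4.6, pandas 2.3.3 and scipy 1.17.1, and compared by exact permutation of libraries. Scripts were tested on simulated data. The members, the gene lists and the rule for named segments were chosen with earlier results of these data known. Named were the 6 highest mean shares per group, the leading segment of each library, the 5 smallest p per dam comparison and the 5 largest rises with age. Replicate numbers were not used to pair the libraries, as the labels do not say that they do. Filters, scalings, indices, left-out libraries and a replicate block were tried as alternatives. Counting close libraries once, leaving out 2-week control library 5 with 7-week periodontitis library 5, dividing by length, and a fixed draw of 56 counts without 2-week control library 5 were added after the data were seen.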

Additional observations from a re-analysis of the deposited data

Results flagged for a closer look

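In 48 combinations of a measure and a group of 5 libraries, 5 had a library whose gap to its nearest neighbour was unusually large against the range of the group, and chance alone gives about 1 in 20. The Igkv level of 7-week control library 3 was 512.6 CPM, against at most 133 CPM in the rest of its group. The share of Igkv8-30 in 2-week periodontitis library 5 was 21.62%, which rests on 37 Igkv counts. The other 3 were in 2-week control library 5. Its breadth in a draw of 37 counts was 10.46 segments, its leading segment held 33.93% of Igkv counts, and that segment, Igkv16-104, was at 33.93% against at most 6.15% in the other libraries of the group.

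The dam difference in effective number differed between the ages by 17.12 (exact permutation p = 0.00983, adjusted p = 0.0337). It was higher in periodontitis than in control libraries at 7 weeks and lower at 2 weeks.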

How the results depend on the processing

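Differences below are periodontitis minus control, or 7 minus 2 weeks, and the cause of each change was not tested. Library totals without TMM gave 2.99 for the level with age in periodontitis pups, no longer passing. A shallower draw gave a breadth difference with age of 0.80 in periodontitis pups, which passed. Segments with at least 10 counts, not drawn to equal depth, turned the breadth difference to -3.8 between dams at 7 weeks, to 24.0 with age in control pups and to -1.8 for the difference between the dam differences. With Shannon entropy the effective number differed by 12.2 with age in periodontitis pups and by 17.5 for the difference between the dam differences, and neither passed. Summed to families, these were 1.23 and 3.42, the leading share with age in periodontitis pups -7.28 and the composition excess 0.0423, and none passed.

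With 2-week control library 5 and 7-week periodontitis library 5 both left out, the level with age was 3.17 in periodontitis and 4.03 in control pups, the leading share with age in periodontitis pups -13.4, and the composition excess 0.151 between dams at 7 weeks, 0.0890 with age in periodontitis and 0.100 with age in control pups, none of which passed. The composition excess at 2 weeks turned to -0.00021, and Igkv3-2 to -0.60 between dams at 7 weeks and -0.044 for the difference between ages. The differences between the dam differences passed for breadth (7.44) and the leading share (-24.6). With close libraries counted once, no call on an Igkv summary held. Between dams at 7 weeks none could, as exact permutation of 3 against 3 libraries allows no p under 0.1. The values were 3.51 and 3.81 for the level with age in periodontitis and control pups, 9.20 and 13.8 for the effective number with age in periodontitis pups and between ages, -12.6 for the leading share, and 0.0490, 0.0378 and 0.0559 for the composition excess at 7 weeks and with age in periodontitis and control pups.

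Segments called with age numbered 63 of 103 tested in periodontitis pups, 62 of them higher, and 55 of 103 in control pups with no filter, where 39.8 and 35.6% of all genes passed. They numbered 9 and 10 of 10 with CPM above 1 in 5 libraries, where 68.3 and 64.3% of all genes passed. When only the groups compared were fitted they numbered 8 of 8 and 8 of 10, where 71.4 and 56.6% of all genes passed. DESeq2 called 56 of 100 with age in periodontitis pups, 55 of them higher, where it called 41.7% of all genes. It called 2 between dams at 2 weeks and 2 for the difference between ages, where it called 1.86 and 0.208% of all genes. Same-numbered libraries of the dams correlated at -0.397 to 0.288. The labels do not say that the replicate numbers pair libraries, and these correlations cannot exclude a pairing. A fit with the replicate number as a block called 0 of 37 segments between dams at 7 weeks and 0 at 2 weeks, where 0% of all genes passed. With age it called 30 of 37 in periodontitis and 32 of 37 in control pups, where 64.1 and 59.6% of all genes passed.

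Leaving out each library in turn gave 3.07 to 4.40 for the level with age in periodontitis pups, 3.44 to 4.53 in control pups, -1.28 to -0.59 between dams at 2 weeks and -0.99 to 0.34 for the difference between ages. Breadth ran over 5.92 to 8.01 between dams at 7 weeks, -2.44 to 0.522 at 2 weeks, 2.20 to 3.11 with age in periodontitis pups, -9.18 to -1.87 in control pups and 4.35 to 7.32 between ages. The draw goes to the smallest library left, so leaving that out also deepens it. Drawn to 56 counts, breadth with age in control pups without 2-week control library 5 was -5.96. The effective number ran over 11.3 to 15.6 between dams at 7 weeks, 8.77 to 11.7 with age in periodontitis pups and 14.9 to 20.1 between ages. The leading share ran over -18.4 to -12.1, -15.7 to -9.13 and -24.4 to -16.1 in the same comparisons. The composition excess ran over 0.109 to 0.163 between dams at 7 weeks, -0.00021 to 0.0289 at 2 weeks, 0.0599 to 0.125 with age in periodontitis pups and 0.0776 to 0.141 in control pups. Igkv3-2 between dams at 7 weeks ran over -0.60 to 3.81. Depth limits the 2-week libraries most, with 37 to 389 Igkv counts each.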

Other observations

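The kappa chain held a larger part of the light-chain variable counts in 7-week periodontitis libraries. Kappa segments made up 77.0 to 90.3% of kappa and lambda variable counts in 7-week periodontitis libraries and 55.5 to 73.8% in 7-week control libraries. The groups did not overlap, but the measure was looked at after its values were seen and was not tested. Constant genes did not separate the groups in this way. In periodontitis library 4 the lambda constant genes had 1038 counts against 687 of Igkc. It was the only 7-week library in which they exceeded Igkc. At 2 weeks the shares were 80.4 to 98.9% in periodontitis and 93.1 to 97.1% in control libraries.

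The heavy chain segments Ighv had an effective number of 16.2 to 31.0 in 7-week periodontitis and 6.63 to 17.4 in 7-week control libraries. Control library 2 lay above the lowest periodontitis libraries, and control library 5, whose Igkv mix was even, was at 11.2 over Ighv. Igkv counts per Igkc count were 0.112 to 0.352 in 7-week periodontitis and 0.235 to 0.443 in 7-week control libraries.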
